A study of Rattus norvegicus with 12 samples.

Results

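The genes of cholesterol and fatty acid synthesis were followed in the rat striatum after methamphetamine (MA) self-administration. They were chosen by symbol from a list of 31 genes, of which 30 are rows of the deposited table of 17337 genes and 1, Scd, is not. The 30 genes comprise 7 enzymes of the mevalonate pathway (Acat2, Hmgcs1, Mvk, Pmvk, Mvd, Idi1 and Fdps), 3 that make squalene and lanosterol (Fdft1, Sqle and Lss), 8 that turn lanosterol into cholesterol (Cyp51, Tm7sf2, Msmo1, Nsdhl, Hsd17b7, Ebp, Sc5d and Dhcr7), 6 regulators and sterol carriers (Srebf1, Srebf2, Scap, Insig1, Insig2 and Stard4) and 6 genes of fatty acid synthesis, elongation and desaturation (Acly, Acaca, Fasn, Elovl6, Fads1 and Fads2).

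Whole striatum was taken from male wild-type Sprague-Dawley rats, which began training at 8 weeks of age. By the sample titles they were given MA self-administration for 16 days. The MA12 group (n = 4) was killed 12 h into abstinence and the MA24 group (n = 4) at 24 h. A further group carries the name non-addicted (n = 4). Its titles give the same 16 days of MA but no hours of abstinence and no criterion. By these titles all 12 rats received MA, and no drug-free rat is labelled. The paper describes a saline group and no group named non-addicted, so that the MA intake of the non-addicted rats rests on the titles alone. Some rat numbers carry a final N: all 4 in MA24, 2 of 4 in MA12 (4N and 7N) and 0 of 4 in the non-addicted group. The labels do not say what N marks, and in the comparison of non-addicted with MA24 rats the kind of rat number and the group cannot be told apart. A rat collected 12 h after a session ending at a fixed hour is also collected at another hour of the day than one collected at 24 h, and the interval and the hour cannot be told apart either.

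Cholesterol in the brain is made in place, because plasma lipoproteins do not cross the blood-brain barrier. Acetyl-CoA is built into mevalonate, isoprenoids, squalene and lanosterol and then into cholesterol, most of it for myelin made by oligodendrocytes and for the membranes that astrocytes supply to neurons. When sterol in the endoplasmic reticulum is low, Scap carries the transcription factors encoded by Srebf1 and Srebf2 to the Golgi for activation, while the Insig proteins hold Scap back when sterol is plentiful; Srebf2 drives mainly the sterol enzymes and Srebf1 mainly the fatty acid enzymes.

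Among the 30 genes, 23 had a promoter window in the RefSeq table of the GRCr8 assembly, each reaching from 250 bases before the annotated start to 50 bases after it. The CCAAT box, the site of the NF-Y factor that acts beside the SREBP proteins at many sterol genes, was searched as CCAAT on both strands and was present in 18 of the 23 genes. It was present in 37.6% of the 9533 genes tested in the RNA data that have a window and in 37.5% of all 33469 windows. The genes without it were Acat2, Cyp51, Dhcr7, Fads2 and Scap. The GC box, GGGCGG on either strand, was present in 20 of the 23 genes and in 61.8% of the tested genes. The windows of the 23 genes had a median of 65.3% G and C bases, against 60.7% in those of the tested genes. The part of this base content in the GC box share was not tested. An E-box, CACGTG, was found in Insig1, Sc5d and Scap, against 9.17% of tested genes, and the sterol response element in the form TCACNCCAC was found in 0 of the 23 windows and in 1.21% of tested genes. These are matches of letters in a fixed window, and no binding was measured.

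The windows of 3 mevalonate enzymes are shown because their RNA was higher in MA24 than in MA12 rats at the unadjusted level given below. Pmvk reached that level too but had no window. Capitals mark the CCAAT and GC boxes on either strand. The windows lie on the minus strand at chr12:47819454-47819753 for Mvk, chr19:67414925-67415224 for Mvd and chr2:176804767-176805066 for Fdps (GRCr8), and are written in the direction of transcription.
Mvk: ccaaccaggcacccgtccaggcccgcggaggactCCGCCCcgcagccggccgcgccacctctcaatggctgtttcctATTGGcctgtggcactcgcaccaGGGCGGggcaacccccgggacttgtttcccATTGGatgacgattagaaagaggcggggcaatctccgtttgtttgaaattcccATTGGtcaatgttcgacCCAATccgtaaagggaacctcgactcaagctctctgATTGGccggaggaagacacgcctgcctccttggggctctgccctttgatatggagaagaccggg
Mvd: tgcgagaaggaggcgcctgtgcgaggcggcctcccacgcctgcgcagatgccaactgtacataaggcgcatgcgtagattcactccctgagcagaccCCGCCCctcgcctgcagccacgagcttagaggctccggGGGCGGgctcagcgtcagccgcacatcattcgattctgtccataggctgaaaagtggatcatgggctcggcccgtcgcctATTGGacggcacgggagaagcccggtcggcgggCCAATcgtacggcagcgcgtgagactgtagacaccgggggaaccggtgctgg
Fdps: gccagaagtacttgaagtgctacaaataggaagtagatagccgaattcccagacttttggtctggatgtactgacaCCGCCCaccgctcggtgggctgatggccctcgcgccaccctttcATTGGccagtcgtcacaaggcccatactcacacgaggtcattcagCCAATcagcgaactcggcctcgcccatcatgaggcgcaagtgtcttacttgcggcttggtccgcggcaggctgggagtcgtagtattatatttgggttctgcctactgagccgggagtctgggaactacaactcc
The Mvk window held CCAAT once on the coding strand, its first base at position -50 from the start, and on the opposite strand at -173, -120, -67 and -14. In Fdps the CCAAT boxes began at -130 and -85, and in Mvd at -35 and -2.

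Libraries held 17908962 to 23051969 counts in MA12, 19690496 to 23850284 in MA24 and 19043710 to 23718399 in non-addicted rats. The 30 genes together took 0.283 to 0.326% of the counts in MA12, 0.285 to 0.314% in MA24 and 0.258 to 0.319% in non-addicted rats. All but Elovl6 (15 to 63 counts per rat) and Hsd17b7 (20 to 77 counts) had at least 213 counts in every rat. The 10 marker genes of striatal projection neurons summed to 15300 to 21100 CPM (counts scaled to library size) over the 12 rats, with none at 0. Levels below are given on the log2 CPM scale (a prior count of 2, libraries scaled by the trimmed mean of M-values, TMM). Differences are log2 fold changes (log2FC) fitted by edgeR, whose quasi-likelihood p-values were adjusted by Benjamini-Hochberg.

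None of the 30 genes passed the threshold of the differentially expressed genes (DEGs), an adjusted p below 0.05 and a fold change of at least 1.5, in any of the 3 comparisons. In MA24 vs. MA12 24 of the genes stayed after removal of the 15% of genes with the lowest variance, and 0 were DEGs, against 2.27% of the 10754 genes tested. The numbers were 0 of 28 genes in non-addicted vs. MA12, against 0.121% of all genes, and 0 of 25 in non-addicted vs. MA24, against 0.344%. Without the variance filter all 30 genes were tested and 0 were DEGs in each comparison, where 1.54%, 0.0395% and 0% of all genes were; the smallest adjusted p-values from edgeR among them were 0.08 for Pmvk in MA24 vs. MA12, 0.169 for Idi1 in non-addicted vs. MA12 and 0.141 for Msmo1 in non-addicted vs. MA24. Every value below comes from these fits without the variance filter, since they hold all 30 genes.

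The precision allows a bound to be given. The 95% interval of the log2FC lay within a 1.5-fold difference in either direction for 28 of the 30 genes in MA24 vs. MA12, for 27 in non-addicted vs. MA12 and for 27 in non-addicted vs. MA24. The median width of the interval to each side was 0.22, 0.23 and 0.23 on the log2 scale. Elovl6 and Hsd17b7, the genes with the fewest counts, had the widest intervals, from -1.64 to 0.09 for Elovl6 and from -1.19 to 0.17 for Hsd17b7 in MA24 vs. MA12. In bulk tissue fewer cells of one type and less RNA per cell cannot be told apart, which holds for every value here.

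**Figure D1:**
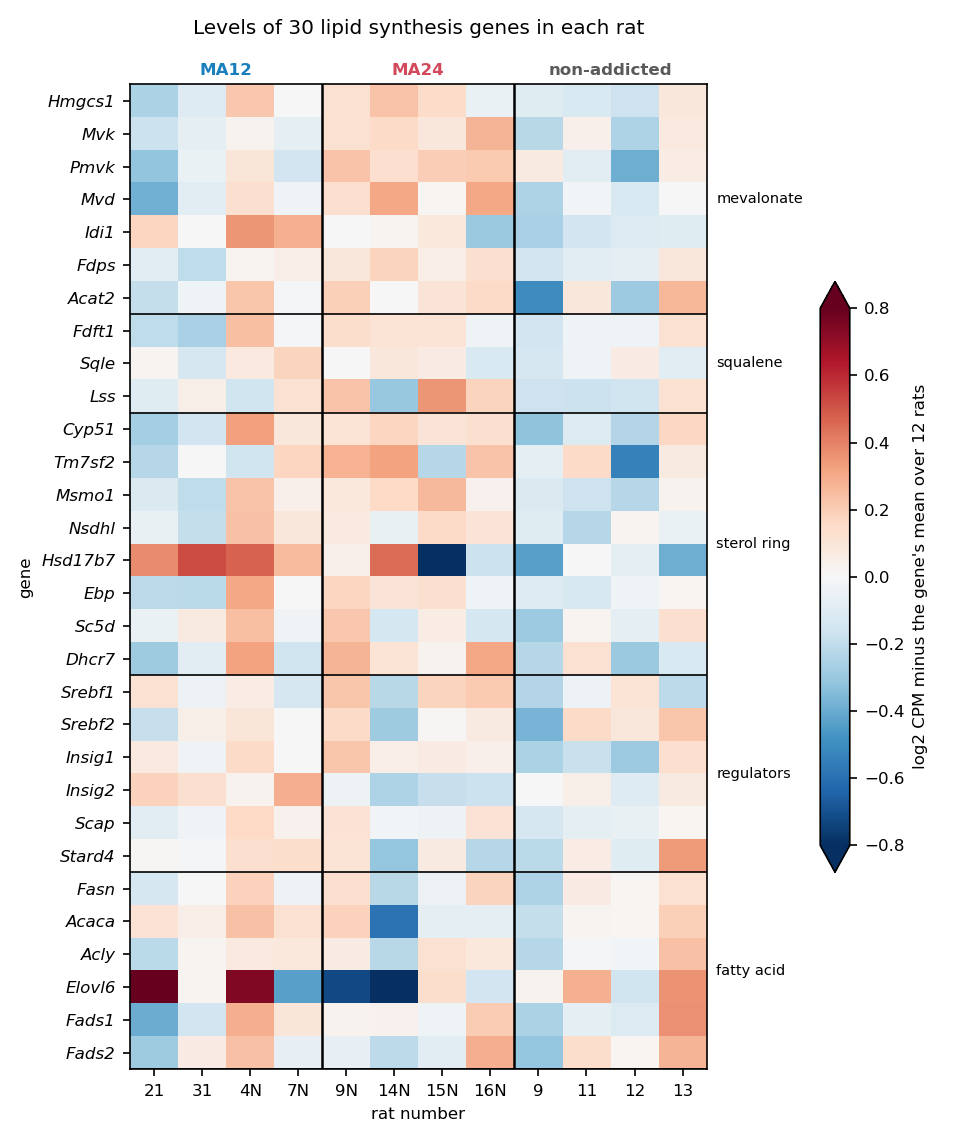
Heat map of the log2 CPM of 30 genes (rows, by pathway step) in 12 rats (columns, by group), each gene centred on its mean over the rats, on a scale from -0.8 to 0.8. In MA12 rat 4N was the highest of its group for 20 genes and rat 21 the lowest for 15, and in the non-addicted group rat 13 was the highest for 23 and rat 9 the lowest for 18.

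The plot of levels by rat shows that single rats differed across the pathway within each group. Among the MA12 rats, 4N led its group for 20 of the 30 genes, while rat 21 was the lowest for 15 and rat 31 for 10. In the non-addicted group rat 13 was the highest for 23 genes and rat 9 the lowest for 18. In MA24 rat 9N was the highest for 11 genes and the lowest for 0, and rat 14N was the lowest for 14 genes, among them Srebf1, Srebf2, Fasn, Acaca and Acly, and the highest for 6, among them Hmgcs1 and Fdps.

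Whether the sterol genes differ between 12 h and 24 h of abstinence is the first comparison. The 18 enzymes of the sterol pathway had a median log2FC of 0.14 in MA24 vs. MA12, with 4 of 18 below 0, while the 6 fatty acid genes had a median of 0.00 with 3 of 6 below 0. Over all 30 genes the median was 0.06 and 21 were above 0, beside a median of -0.01 over all genes tested. An unadjusted p below 0.05 was reached by 4 genes that were higher in MA24 (Mvk, Pmvk, Mvd and Fdps) and by 1 that was lower (Insig2), where 10.7% and 12.3% of all genes reached it, so that the first share stood near the background and the second under it. The groups did not overlap for 3 genes that were higher (Mvk, Pmvk and Fdps) and for 1 that was lower (Insig2), against 6.77% and 7.64% of all genes.

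Mvk, mevalonate kinase, adds the first phosphate to mevalonate. Its level was 5.33, 5.43, 5.53 and 5.43 in MA12 rats 21, 31, 4N and 7N and 5.62, 5.65, 5.59 and 5.78 in MA24 rats 9N, 14N, 15N and 16N. All 4 MA24 rats stood above all 4 MA12 rats, with a log2FC of 0.23 (SE 0.08, edgeR adjusted p = 0.102). Non-addicted rats 9, 11, 12 and 13 had levels of 5.28, 5.54, 5.25 and 5.58, which spanned the MA12 range and lay below the MA24 range.

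Pmvk, the next kinase of the pathway, had levels of 5.22, 5.48, 5.63 and 5.38 in the MA12 rats, in the same order, and 5.76, 5.67, 5.73 and 5.75 in the MA24 rats. The MA24 rats lay close together (SD 0.04, n = 4) and above the MA12 rats (SD 0.17, n = 4), and the log2FC was 0.29 (SE 0.09, edgeR adjusted p = 0.08). Levels in the non-addicted rats were 5.61, 5.45, 5.15 and 5.59, below every MA24 rat.

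Mvd, the decarboxylase that gives isopentenyl diphosphate, had levels of 4.77, 5.07, 5.29 and 5.13 in MA12, 5.29, 5.47, 5.17 and 5.47 in MA24 and 4.91, 5.14, 5.04 and 5.16 in non-addicted rats. MA12 and MA24 overlapped through rats 4N and 15N, with a log2FC of 0.28 (SE 0.11, edgeR adjusted p = 0.149), and non-addicted and MA24 rats did not. Fdps, farnesyl diphosphate synthase, had levels of 6.35, 6.23, 6.45 and 6.49 in MA12, 6.52, 6.62, 6.49 and 6.56 in MA24 and 6.28, 6.34, 6.35 and 6.53 in non-addicted rats. The lowest MA24 rat and the highest MA12 rat were nearly level for Fdps (6.488 and 6.487), and the log2FC was 0.16 (SE 0.08, edgeR adjusted p = 0.211).

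**Figure D2:**
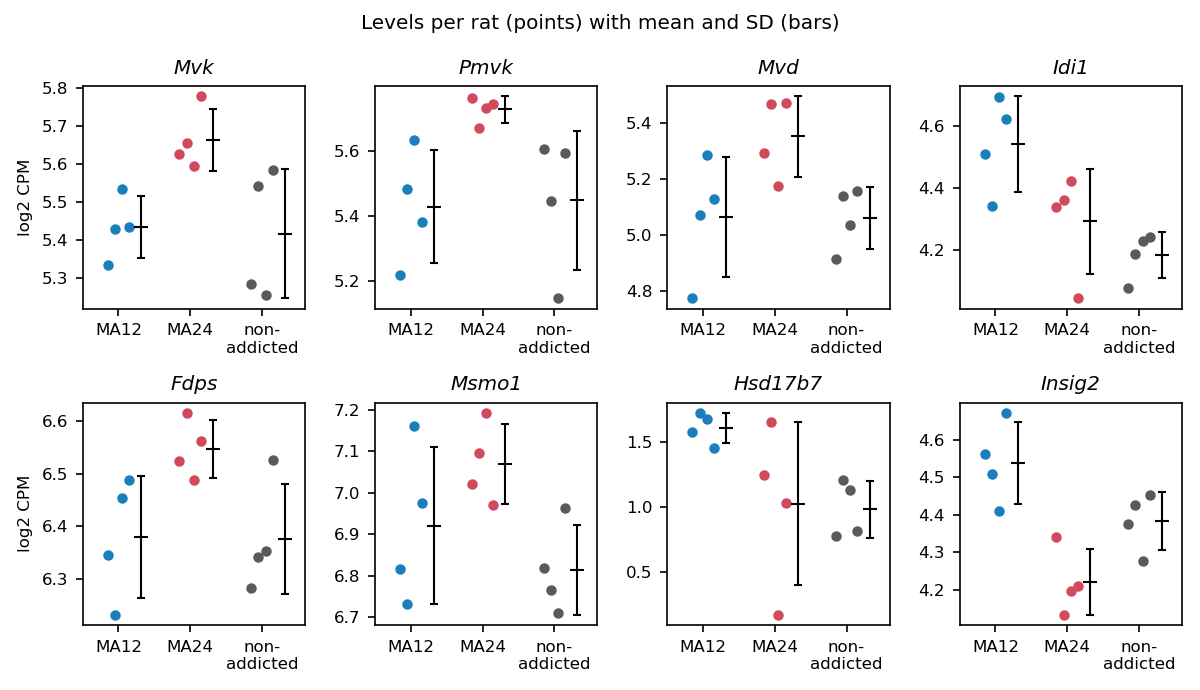
Levels (log2 CPM, vertical axes not starting at 0) of the 8 genes whose groups did not overlap in at least 1 comparison; points are rats and bars to the right give the mean and SD of 4 rats. Mvk, Pmvk and Fdps were higher and Insig2 was lower in all MA24 than in all MA12 rats, and Idi1 and Hsd17b7 were lower in all non-addicted than in all MA12 rats.

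Not every mevalonate enzyme shared this order. Hmgcs1, which makes HMG-CoA, had levels of 7.62, 7.77, 8.09 and 7.87 in MA12, 8.00, 8.10, 8.02 and 7.81 in MA24 and 7.77, 7.75, 7.70 and 7.96 in non-addicted rats. The groups overlapped, at a log2FC of 0.14 (SE 0.10) for MA24 vs. MA12. Idi1, the isomerase that follows Mvd, had a log2FC of -0.25 (SE 0.12, edgeR adjusted p = 0.218), from 4.51, 4.34, 4.70 and 4.62 in MA12 to 4.34, 4.36, 4.42 and 4.05 in MA24. In the GRCr8 annotation the span of Idi1 overlaps that of Wdr37, and the library kit does not mark strand. Reads cannot be told apart where exons of the pair overlap, and the exons were not compared.

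Sqle, squalene epoxidase and a control point of sterol synthesis, differed little, with levels of 5.52, 5.36, 5.58 and 5.67 in MA12, 5.50, 5.59, 5.56 and 5.38 in MA24 and 5.37, 5.46, 5.57 and 5.41 in non-addicted rats. Its log2FC was -0.03 in MA24 vs. MA12, with a 95% interval from -0.21 to 0.16. Of the 8 enzymes after lanosterol, 6 had a log2FC above 0 in MA24 vs. MA12, the highest being 0.22 for Dhcr7, the last enzyme before cholesterol, and 0.21 for Tm7sf2. Cyp51, Msmo1, Nsdhl and Ebp lay from 0.05 to 0.14, and Sc5d (-0.06) and Hsd17b7 (-0.51) were below 0. Fdft1, squalene synthase, and Lss, which closes the sterol rings, had log2FCs of 0.13 (SE 0.10) and 0.15 (SE 0.13), and Acat2 of 0.11 (SE 0.11).

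Among the regulators, Insig2, which retains Scap in the endoplasmic reticulum, had levels of 4.56, 4.51, 4.41 and 4.67 in MA12 and 4.34, 4.13, 4.20 and 4.21 in MA24, and the 2 groups did not overlap. The log2FC was -0.32 (SE 0.10, 95% interval -0.54 to -0.10, edgeR adjusted p = 0.0844), and non-addicted rats, with 4.38, 4.43, 4.28 and 4.45, overlapped both groups. Insig1, its homologue and itself a target of the SREBP proteins, had levels of 6.15, 6.05, 6.23 and 6.07 in MA12 and 6.29, 6.13, 6.14 and 6.11 in MA24, a log2FC of 0.05 (SE 0.08). The difference between the 2 Insig genes was not tested.

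Srebf2 had levels of 7.66, 7.89, 7.94 and 7.84 in MA12, 8.00, 7.55, 7.85 and 7.91 in MA24 and 7.47, 7.99, 7.93 and 8.06 in non-addicted rats. The means of the 3 groups lay within 0.04 of each other on the log2 scale, and the log2FC in MA24 vs. MA12 was 0.00 with a 95% interval from -0.20 to 0.21. Srebf1 had levels of 7.15, 6.98, 7.09 and 6.89 in MA12, 7.25, 6.80, 7.21 and 7.24 in MA24 and 6.79, 6.98, 7.14 and 6.82 in non-addicted rats, with a log2FC of 0.10 (SE 0.10) in MA24 vs. MA12. In the GRCr8 annotation the span of Srebf1 overlaps that of Rai1 and the span of Srebf2 that of Mir33, with the same limit as for Idi1. Scap had levels of 7.94, 7.99, 8.18 and 8.06 in MA12, 8.14, 8.00, 7.98 and 8.14 in MA24 and 7.89, 7.95, 7.96 and 8.04 in non-addicted rats, and its log2FC of 0.02 in MA24 vs. MA12 had an interval from -0.14 to 0.18. Stard4, a carrier of sterol between membranes, had a log2FC of -0.15 (SE 0.10).

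Of the fatty acid genes, Fasn, fatty acid synthase, had levels of 8.49, 8.62, 8.80 and 8.58 in MA12, 8.75, 8.40, 8.57 and 8.80 in MA24 and 8.37, 8.69, 8.63 and 8.74 in non-addicted rats. For MA24 vs. MA12 this gave a log2FC of 0.01, with an interval from -0.19 to 0.22. Acaca, acetyl-CoA carboxylase, which makes malonyl-CoA, had levels of 6.04, 5.97, 6.16 and 6.04 in MA12, 6.10, 5.33, 5.84 and 5.85 in MA24 and 5.73, 5.95, 5.94 and 6.11 in non-addicted rats. Rat 14N was the lowest of all 12 rats for Acaca, the groups overlapped, and the log2FC in MA24 vs. MA12 was -0.24 (SE 0.13, edgeR adjusted p = 0.265). Acly, which supplies cytosolic acetyl-CoA, and the desaturases Fads1 and Fads2 had log2FCs of 0.02, 0.08 and -0.01, and Elovl6, a fatty acid elongase at few counts, of -0.78 (SE 0.40).

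The medians of MA24 vs. MA12 changed when the rats were chosen by the kind of rat number, and the cause was not tested. Leaving out the rats without N also leaves out particular MA12 rats. The kind of number and the spread between single rats therefore cannot be told apart here. With only the rats whose number ends in N (2 MA12 and 4 MA24 rats) the median log2FC of the 18 sterol enzymes in MA24 vs. MA12 was 0.01, and that of all 30 genes was -0.05 with 18 below 0. With the kind of number as a covariate the medians were 0.00 and -0.05, with 18 of 30 below 0. Every rat without N in this comparison is in MA12. The covariate fit therefore rests on the same contrast as the N rats alone and is not a second check. The number of the 30 genes with an unadjusted p below 0.05 in either direction was 5 over all rats, where 23.0% of all genes had one. It was 2 with only the N rats and 2 with the covariate, against 13.8% and 15.0% of all genes. It was 3 without MA12 rat 21, 3 without MA24 rat 16N and 10 without MA12 rat 4N, against 17.6%, 18.8% and 22.5%. On leaving out MA24 rat 15N or 14N it was 7 or 6, against 21.4% or 19.1%. On leaving out MA12 rat 31, MA12 rat 7N or MA24 rat 9N it was 5, 6 or 5, against 19.5%, 22.6% or 24%. The share stood well above its background only without rat 4N, and slightly above it without rat 15N or 14N. Mvk, Pmvk, Mvd, Fdps and Insig2 kept the sign of their log2FC under all of these settings, with ranges over every alternative of 0.18 to 0.27, 0.21 to 0.36, 0.15 to 0.36, 0.08 to 0.20 and -0.36 to -0.28. These 5 genes were picked by their unadjusted p in the same comparison, and the settings reuse the same rats. Their kept sign is therefore not separate evidence.

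**Figure D3:**
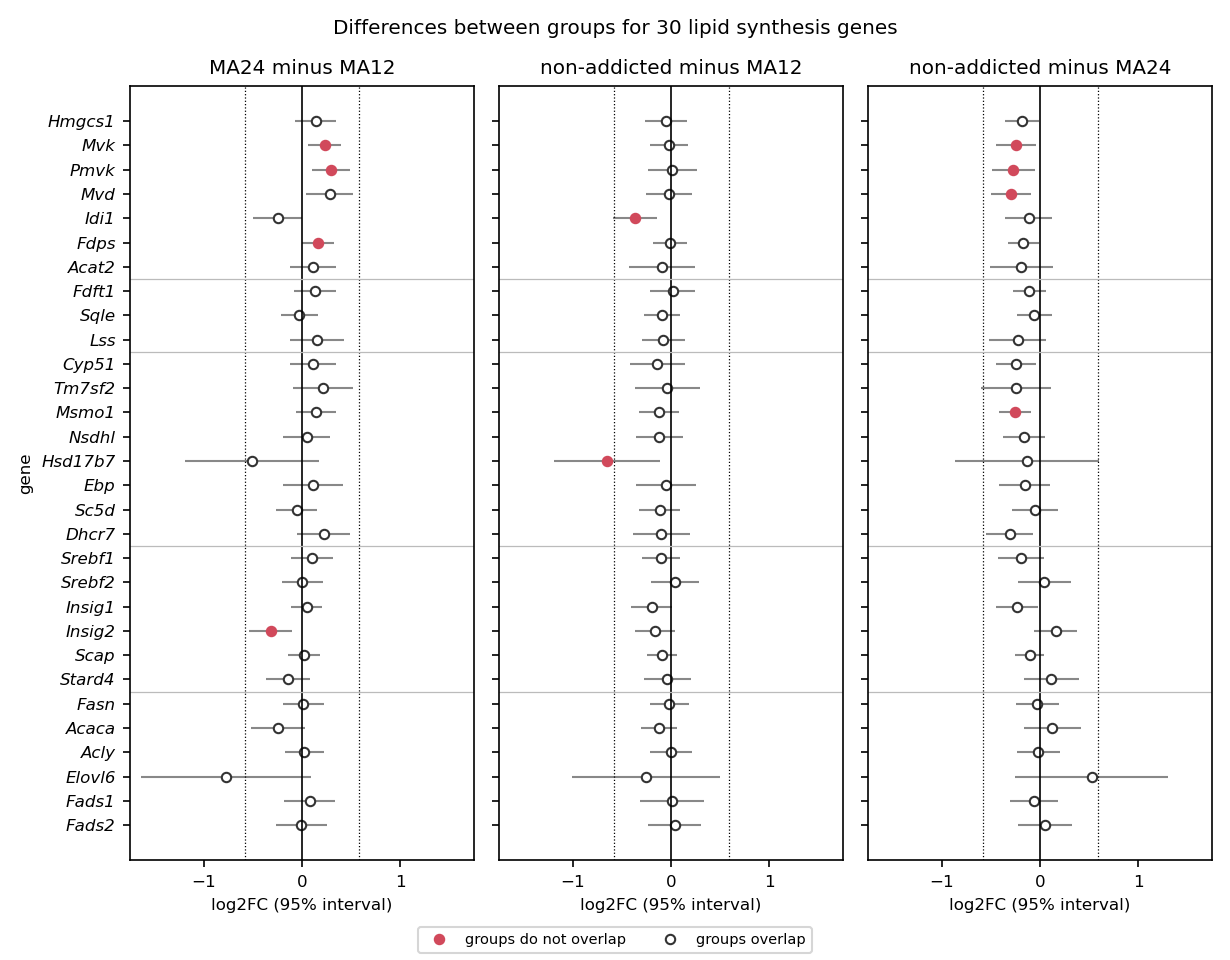
The log2FC (horizontal axis) with its 95% interval for each of 30 genes (rows, separated by pathway step) in the 3 comparisons; filled points mark genes whose groups did not overlap and dotted lines a 1.5-fold difference. In the panel of non-addicted minus MA24 rats all 18 sterol enzymes lie left of 0, from -0.31 for Dhcr7 to -0.05 for Sc5d, and no point passed the DEG threshold.

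The second comparison set the non-addicted rats against MA12. Over the 30 genes 25 had a log2FC below 0, with a median of -0.08 beside -0.01 over all genes, and all 8 enzymes after lanosterol were below 0 with a median of -0.12. An unadjusted p below 0.05 was reached by 2 genes that were lower (Idi1 and Hsd17b7) and by 0 that were higher, against 6.83% and 5.2% of all genes. The same 2 genes were lower in all non-addicted than in all MA12 rats, and 0 genes were higher in all of them, against 3.27% and 3.38% of all genes.

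Idi1 had levels of 4.08, 4.19, 4.23 and 4.24 in non-addicted rats 9, 11, 12 and 13, where the MA12 rats ranged from 4.34 to 4.70. The log2FC was -0.37 (SE 0.10, 95% interval -0.60 to -0.15, edgeR adjusted p = 0.169). Hsd17b7, a ketoreductase that removes sterol C4 groups together with Nsdhl and Msmo1, had 31, 45, 51 and 32 counts in the non-addicted rats and 69, 77, 66 and 47 counts in MA12 rats 21, 31, 4N and 7N. Scaled for library size these gave levels of 0.77, 1.21, 1.13 and 0.82 against 1.58, 1.73, 1.68 and 1.46, a log2FC of -0.65 (SE 0.25, edgeR adjusted p = 0.319). In MA24 it had 53, 62, 20 and 37 counts and overlapped both groups.

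For the 4 enzymes with an unadjusted p below 0.05 in MA24 vs. MA12, the log2FC in non-addicted vs. MA12 was -0.02 for Mvk, 0.01 for Pmvk, -0.02 for Mvd and -0.01 for Fdps, with SEs from 0.08 to 0.11. Insig1 had a log2FC of -0.20 (SE 0.10, edgeR adjusted p = 0.441), with levels of 5.82, 5.89, 5.78 and 6.21 in the non-addicted rats, of which rat 13 lay within the MA12 range. With only the rats whose number has no N (2 MA12 and 4 non-addicted rats) the median over the 30 genes was 0.04 with 10 below 0. In that setting 0 of the 30 genes had an unadjusted p below 0.05, against 9.88% of all genes. For the 18 sterol enzymes 16 were below 0 over all rats, 10 without MA12 rat 4N and 4 with only the rats without N.

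The third comparison set the non-addicted rats against MA24. Every one of the 18 sterol enzymes had a log2FC below 0, with a median of -0.19, and the 6 fatty acid genes had a median of 0.01 with 3 below 0. Over all 30 genes the median was -0.15, beside 0.00 over all genes. The genes with an unadjusted p below 0.05 were 9 that were lower (Hmgcs1, Mvk, Pmvk, Mvd, Fdps, Cyp51, Msmo1, Dhcr7 and Insig1) and 0 that were higher, where 8.46% and 9.22% of all genes reached it. Non-addicted and MA24 rats did not overlap for 4 genes that were lower (Mvk, Pmvk, Mvd and Msmo1) and 0 that were higher, against 4.49% and 4.91% of all genes. With all rats the share of lower genes stood above these backgrounds. Counted in either direction, the share did not stand above its background without non-addicted rat 9 or 12. The enzymes share a pathway and a set of regulators and are not independent, and none passed after adjustment over all genes. Comparisons with MA24 on one side share its 4 rats, so that the values of MA24 vs. MA12 and of non-addicted vs. MA24 are not separate evidence.

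Msmo1, the sterol C4 methyl oxidase, had levels of 6.82, 6.77, 6.71 and 6.96 in the non-addicted rats and 7.02, 7.09, 7.19 and 6.97 in the MA24 rats. The groups met at rats 13 and 16N without overlapping, with a log2FC of -0.26 (SE 0.08, 95% interval -0.42 to -0.09, edgeR adjusted p = 0.141). Cyp51, the lanosterol demethylase, had levels of 7.07, 7.29, 7.17 and 7.56 against 7.51, 7.57, 7.50 and 7.52, so that rat 13 lay within the narrow MA24 range (SD 0.03, n = 4), and its log2FC was -0.24 (SE 0.09). Dhcr7 had levels of 4.73, 5.08, 4.66 and 4.84 against 5.23, 5.07, 4.99 and 5.27, with a log2FC of -0.31 (SE 0.11, edgeR adjusted p = 0.184).

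The mevalonate enzymes had log2FCs in non-addicted vs. MA24 of -0.29 (SE 0.10) for Mvd, -0.27 (SE 0.10) for Pmvk, -0.24 (SE 0.09) for Mvk, -0.19 (SE 0.08) for Hmgcs1 and -0.17 (SE 0.07) for Fdps. Those of Idi1 (-0.12) and of Acat2, the cytosolic thiolase that opens the pathway (-0.19), had intervals that included 0. So did those of Fdft1 (-0.11), Sqle (-0.06), Lss (-0.23), Tm7sf2 (-0.24), Nsdhl (-0.16), Ebp (-0.16), Sc5d (-0.05) and Hsd17b7 (-0.13). Insig1 stood at -0.24 (SE 0.10, edgeR adjusted p = 0.236), while Insig2 stood at 0.16 (SE 0.10), Srebf2 at 0.04 and Srebf1 at -0.20 (SE 0.11). Fasn (-0.03), Acly (-0.02), Fads1 (-0.06), Fads2 (0.05) and Acaca (0.13) lay near 0 within their intervals. Elovl6, at few counts, stood at 0.53 (SE 0.36), with a 95% interval from -0.26 to 1.31.

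The count of 9 genes rested on single rats to some extent. Over all rats 17.7% of all genes had an unadjusted p below 0.05 in either direction. Without non-addicted rat 9 the count was 4 of 30 genes against 18.7% of all genes, and without non-addicted rat 12 it was 3 of 30 against 11.6%, so that in both cases the share no longer stood above the background. Over all alternatives the count ranged from 3 to 11. The median of the sterol enzymes stayed between -0.27 and -0.17 on leaving out each rat in turn, and 17 or 18 of the 18 enzymes were below 0 each time.

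**Figure D4:**
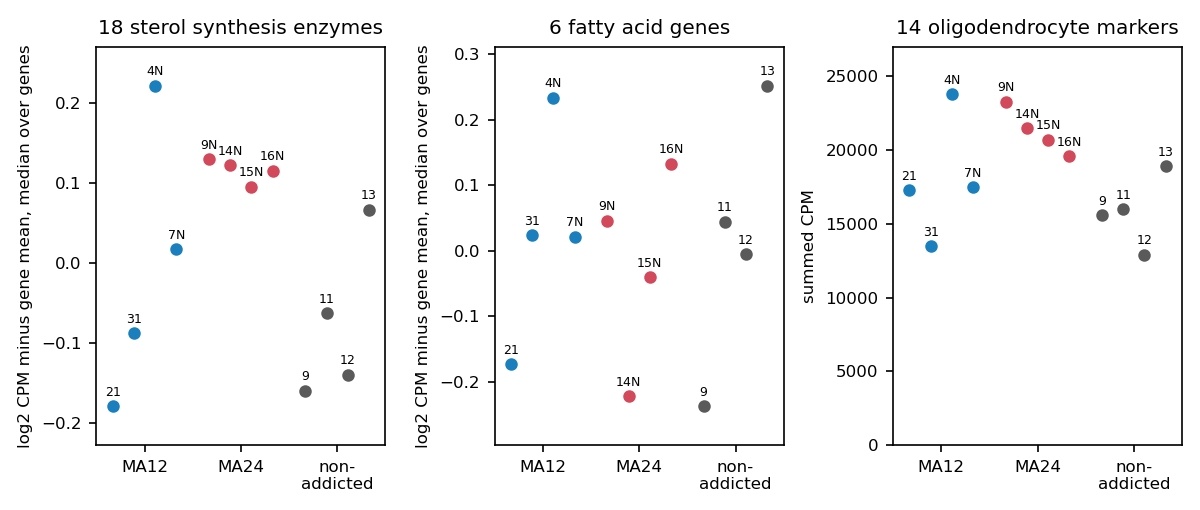
For each rat (points, labelled with the rat number), the median over 18 sterol synthesis enzymes and over 6 fatty acid genes of log2 CPM minus the gene's mean (left and centre), and the summed CPM of 14 oligodendrocyte marker genes (right). The MA24 rats lie above the non-addicted rats in the left and right panels, at 0.10 to 0.13 against -0.16 to 0.07 and at 19600 to 23300 against 12900 to 18900 CPM, and overlap them in the centre panel.

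Per rat, the median centred level of the 18 sterol enzymes was 0.10 to 0.13 in MA24, -0.16 to 0.07 in the non-addicted group and -0.18 to 0.22 in MA12, where rat 21 was the lowest and rat 4N the highest. That of the 6 fatty acid genes was -0.22 to 0.13, -0.24 to 0.25 and -0.17 to 0.23, with the 3 groups overlapping. The 14 markers of oligodendrocytes summed to 23300, 21500, 20700 and 19600 CPM in MA24 rats 9N, 14N, 15N and 16N and to 15600, 16000, 12900 and 18900 CPM in non-addicted rats 9, 11, 12 and 13, so that the groups did not overlap, and in MA12 rats 21, 31, 4N and 7N to 17300, 13500, 23800 and 17500 CPM. All 14 had a log2FC below 0 in non-addicted vs. MA24 (median -0.36) and in non-addicted vs. MA12 (median -0.23), 6 of 14 did so in MA24 vs. MA12 (median 0.07), and 0 had an adjusted p below 0.05 in any of the 3. Their part in the sterol values was not tested.

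Other cell types gave further values beside the third comparison. Endothelial markers were below 0 in non-addicted vs. MA24 for 7 of 7 genes (summed CPM 301 to 428 against 486 to 531) and microglial markers for 8 of 8 (296 to 412 against 392 to 516). Markers of striatal projection neurons were below 0 for 8 of 10 (15900 to 19100 against 19000 to 21100 CPM), those of oligodendrocyte precursors for 4 of 6 (432 to 517 against 520 to 605 CPM) and those of astrocytes, the other main source of brain sterol, for 4 of 10 (3390 to 4230 against 3740 to 4200 CPM). Ependymal and choroid plexus markers were above 0 for 7 of 8 (66.1 to 128 against 56.3 to 72.6 CPM), and Ttr was the only marker of any list at 0 in any rat. None of these had an adjusted p below 0.05 in that comparison, and their part in the sterol values was not tested. In MA24 vs. MA12 1 of the 10 astrocyte markers had an adjusted p below 0.05 and was lower, and 0 of the other markers did.

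The wider pathway was read from a pair of further lists. Of 24 other sterol and fatty acid synthesis genes 21 are rows and were tested, and 0 were DEGs or had an adjusted p below 0.05 in any comparison. An unadjusted p below 0.05 was reached by 6 higher and 0 lower genes in MA24 vs. MA12, by 2 and 3 in non-addicted vs. MA12 and by 1 and 5 in non-addicted vs. MA24, where 10.7% and 12.3%, 5.2% and 6.83%, and 9.22% and 8.46% of all genes were higher and lower at that level. Their medians were 0.06 in MA24 vs. MA12, -0.08 in non-addicted vs. MA12 and -0.16 in non-addicted vs. MA24, with 8, 14 and 14 of 21 below 0. Among them, and named after their values were seen, Scd2, the main stearoyl-CoA desaturase of the brain, had log2FCs of 0.10 (SE 0.12), -0.08 (SE 0.13) and -0.17 (SE 0.09) in the same order. Elovl1, an elongase of very long chain fatty acids, had levels of 5.85, 5.95, 5.64 and 5.74 in non-addicted and 6.10, 6.35, 6.25 and 6.11 in MA24 rats, a log2FC of -0.41 (SE 0.09, edgeR adjusted p = 0.084). Of 28 genes of sterol uptake, efflux, storage and turnover 25 were tested, 0 were DEGs or had an adjusted p below 0.05, and the medians were -0.02, -0.04 and -0.05. An unadjusted p below 0.05 was reached there by 3 higher and 3 lower, 1 and 3, and 1 and 4 genes, beside the same shares of all genes.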

How the data were processed

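Striatal mRNA of 12 male rats was read from the gene-level table of raw counts that the authors deposited. Per the methods and the submitters' processing notes, poly-A libraries made with a kit that does not mark strand were counted with featureCounts after trimming (Cutadapt 1.18) and alignment to the rn6 genome (STAR 2.7.0e) (HTSeq 0.12.4 is also named); the treatment of reads with several matches is not given in the sources used here. Groups came from the sample titles. Each pair of groups was fitted with edgeR 4.0.16 in R 4.3.3 (quasi-likelihood, TMM over all genes), keeping genes with a mean count above 4. As in the study, the 15% of genes with the lowest variance were then removed for DEG calls (adjusted p below 0.05, fold change of at least 1.5). Other values came from the fit without this removal. Levels are given as log2 CPM (prior count 2). Alternatives included DESeq2 1.42.0, and the statistics were tested on simulated data.

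The genes and lists were chosen with earlier results of these data known. Values per rat were given for genes with an adjusted p below 0.05 or with groups that did not overlap in MA24 vs. MA12, and for Srebf1, Srebf2, Insig1, Insig2, Scap, Hmgcs1, Sqle, Fdps, Acaca and Fasn; those of Mvd, Idi1, Msmo1, Hsd17b7, Cyp51, Dhcr7 and Elovl1 were added after their values were seen. P-values weigh the difference between groups against the spread between rats within them.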

Additional observations from a re-analysis of the deposited data

Results flagged for a closer look

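In each group of 4 rats, the distance of the highest or lowest level from its nearest neighbour was divided by the range, and a ratio above Dixon's 95% critical value set a rat apart. Over 90 groups (30 genes in 3 groups) 4 were set apart, where chance gives about 4.5. Lss, lanosterol synthase, was highest in non-addicted rat 13 (ratio 0.9422, 573 counts, level 4.90 against 4.61 to 4.63 in the other rats). Srebf1 was lowest in MA24 rat 14N (ratio 0.8973, 2265 counts against 2854 to 3543). Insig1 was highest in MA24 rat 9N (ratio 0.847, 1823 counts against 1309 to 1415). Tm7sf2, a sterol reductase, was lowest in MA24 rat 15N (ratio 0.8294, 262 counts against 351 to 447).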

How the results depend on the processing

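The count of DEGs among the 30 genes was 0 under every alternative run: RLE size factors, DESeq2, edgeR's likelihood ratio test, looser and stricter filters, a joint fit of the 3 groups, each rat left out, the kind of rat number, and TMM factors from the filtered genes (the last chosen after seeing the data). Over all genes the count was itself 0 in non-addicted vs. MA24 in the joint fit and without non-addicted rat 11 or 12. In non-addicted vs. MA12 it was 4 without MA12 rat 4N or non-addicted rat 11. In such settings 0 of the 30 genes says nothing particular about them. For MA24 vs. MA12 the count over all genes lay between 28 with the covariate and 400 without MA24 rat 9N. An adjusted p below 0.05, at folds under 1.5, was reached in MA24 vs. MA12 by Pmvk (0.0424) and Insig2 (0.048) with DESeq2 and by Pmvk with edgeR's likelihood ratio test (0.0469), and by Cyp51 (0.0494) in non-addicted vs. MA24 on leaving out 1 rat, non-addicted rat 13. The median log2FC over the 30 genes in MA24 vs. MA12 went from 0.06 to -0.0511 with only rats numbered with N and to -0.0542 with the kind of number as covariate, and that of the 18 sterol enzymes from 0.14 to 0.00549 and 0.00233. Both settings rest on the same contrast of rats. In non-addicted vs. MA12 the medians of -0.08 went to 0.0415 and 0.0433 with only rats numbered without N; the cause was not tested. On leaving out each rat in turn the medians over the 30 genes ranged from 0.0233 to 0.116 in MA24 vs. MA12, from -0.117 to -0.0171 in non-addicted vs. MA12 and from -0.165 to -0.0818 in non-addicted vs. MA24, and those of the sterol enzymes from 0.0794 to 0.209, -0.116 to -0.0133 and -0.271 to -0.166. Without MA12 rat 21, 14 of the 30 genes were below 0 in MA24 vs. MA12, against 9 over all rats. No paired analysis was possible because the groups share no rat numbers. Elovl6 and Hsd17b7 were limited by their counts.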
